A study of Sus scrofa with 12 samples.

Results

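Small RNA from pig liver was compared between 6 libraries from the cold and 6 from normal temperature, with breed as a factor. The values describe the average of the cold responses of a Bama and a Hezuo group. A change in 1 breed alone can move that average. All 12 libraries of the series enter the comparison: 3 cold Bama livers and 3 cold Hezuo livers (-15 ± 2 °C), against 3 normal Bama livers and 3 normal Hezuo livers (23 ± 2 °C), all taken at day 15. The study asks about the cold resistance of the Hezuo pig. Pigs carry the numbers 1 to 3 in every group; no age, sex or litter is stated. Within a group the numbers name different pigs, but the labels do not say whether a number is the same pig at both temperatures. The main tests treat all 12 libraries as separate animals, and p-values measure only the spread between these libraries. The table lists 774 miRNA entries: 303 with porcine names, 379 named after miRNAs of other species (marked x, y or z), and 92 predicted from the reads. Listed counts were 7184168 to 10384074 per library, and 655 to 694 entries had counts in a library. A filter on low counts left 460 entries for testing, and 314 were not tested.

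MicroRNAs are cut as duplexes from hairpin transcripts, and 1 strand of the duplex is usually kept in an Argonaute protein. That strand finds target mRNAs mainly through its seed, bases 2 to 8, so entries with 1 seed share most predicted targets, and a form that starts 1 base later has another seed. Forms that differ only at the 3′ end share a seed and arise by trimming or by the addition of bases after cutting. In the liver, miR-122 is the hepatocyte miRNA that supports cholesterol and lipid metabolism, miR-148a lowers the LDL receptor in mice and human cells, and miR-192 with miR-194 marks liver and gut epithelium. Cold is known to raise fuel use in mammals, and miR-378 and miR-455 are known in mice from energy metabolism and brown fat.

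The sequences below are those of the 10 entries that passed the test over both breeds and of the relatives needed to read them. They are printed as deposited, 5′ to 3′, with T for U, and the capitals mark the seed.
miR-29b: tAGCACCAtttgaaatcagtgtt
miR-29c: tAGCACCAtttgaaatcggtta
miR-29a-3p: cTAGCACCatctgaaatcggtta
miR-7-5p: tGGAAGACtagtgattttgttgtt
miR-140-3p: tACCACAGggtagaaccacggac
miR-140-5p: aGTGGTTTtaccctatggtag
miR-378: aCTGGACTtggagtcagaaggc
miR-378-y: aCTGGACTtggagtcagaaggcaa
miR-378b-3p: aCTGGACTtggagtcagaagt
miR-181-y: aCCACCGAccgttgactgtacc
miR-181a: aACATTCAacgctgtcggtgagtt
miR-192-z: cTGACCTAtgaattgacagccatt
miR-192-x: cTGACCTAtgaattgacagccat
miR-192: cTGACCTAtgaattgacagcc
miR-215-z: tGACCTATgaattgacagccat
let-7c: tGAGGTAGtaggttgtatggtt
let-7a: tGAGGTAGtaggttgtatagtt
miR-455-3p: gCAGTCCAtgggcatatacac
miR-455-5p: tATGTGCCtttggactacatcg
miR-122-5p: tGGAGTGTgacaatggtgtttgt
miR-148a-3p: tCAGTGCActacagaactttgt
The 3 entries of miR-192 are nested: miR-192-x and miR-192-z continue the same strand from 21 nt to 23 and 24 nt. The entry named miR-215-z is miR-192-x without its first base, so it carries a shifted seed although most of its letters are those of miR-192. MiR-378-y is miR-378 with 2 more bases, while miR-378b-3p shares the seed and ends differently. MiR-29a-3p begins 1 base earlier than miR-29b in this table, so that the seeds as listed are not the same.

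In cold livers the most abundant miRNA took a smaller part of the library and the next most abundant a larger part. MiR-122-5p made up 49.0%, 46.8% and 50.0% of the listed counts in cold Bama livers and 42.8%, 48.3% and 47.2% in cold Hezuo livers, against 54.5%, 49.9% and 56.2% in normal Bama livers and 51.4%, 52.3% and 57.1% in normal Hezuo livers. All 3 cold Hezuo livers lay below the normal ones, while in Bama 1 cold liver (50.0%) lay just above 1 normal liver (49.9%). MiR-148a-3p made up 26.6%, 29.1% and 27.2% in cold Bama livers and 30.1%, 28.9% and 27.2% in cold Hezuo livers, against 21.5%, 24.9% and 19.6% in normal Bama livers and 23.9%, 23.5% and 21.1% in normal Hezuo livers. No cold liver overlapped a normal one in this share. Averaged over breeds, the share of miR-122-5p changed by -6.23 percentage points (exact permutation within breed, two-sided p = 0.01, adjusted over 29 shares 0.0483). That of miR-148a-3p changed by 5.76 points (exact permutation p = 0.005, the smallest that the 400 arrangements can give, adjusted 0.0363). Both adjusted p-values were 0.0725 without Bama cold 1 and 0.0644 without Bama cold 2. Without Bama cold 1 the differences were no smaller, at -6.32 points for miR-122-5p and 6.02 points for miR-148a-3p. Without Bama cold 2 they were -5.77 and 5.39 points. In liver as a whole, fewer cells of a type and less of an RNA per cell cannot be told apart, and shares of 1 library cannot move independently.

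The same shift showed in length. Entries of 22 nt, the length of miR-148a-3p, held 39.1% ± 1.67 of the listed counts in cold livers and 32.2% ± 2.20 in normal livers (SD, n = 6 each; exact permutation p = 0.005, adjusted 0.0363). Entries of 23 nt, the length of miR-122-5p, held 52.1% ± 1.86 in cold livers and 59.0% ± 2.39 in normal livers (exact permutation p = 0.005, adjusted 0.0363). Cold and normal livers did not overlap in either, and both adjusted p-values were 0.0725 without Bama cold 1 and 0.0644 without Bama cold 2. Without Bama cold 1 the differences were 6.92 points for 22 nt and -6.92 points for 23 nt, beside 6.82 and -6.87 points with all livers. With miR-122-5p left out of the total, the difference was 4.79 points for 22 nt and -2.63 points for 23 nt (exact permutation, adjusted p = 0.015 each). That total still held miR-148a-3p among the 22-nt entries, and the 23-nt miR-192-x alone differed by -2.45 points in it. A shift in length beyond these single entries was therefore not tested. The remaining abundant entries gave smaller differences that did not pass after adjustment, with exceptions under other settings. MiR-21-5p, a miRNA of injury and inflammation, held 1.96% ± 0.508 in cold and 1.34% ± 0.333 in normal livers (exact permutation p = 0.035, adjusted 0.0923). The endothelial miR-126-3p held 1.38% ± 0.150 in cold and 1.16% ± 0.0958 in normal livers (exact permutation p = 0.015, adjusted 0.0544); it passed with library totals as the denominator (adjusted p = 0.0435), without Bama cold 3 (0.029) and without Hezuo cold 1 (0.0363). MiR-192-x held 3.69% ± 0.745 in cold and 4.39% ± 0.643 in normal livers (exact permutation p = 0.05, adjusted 0.121). With miR-122-5p left out of the total, the share of miR-192-x differed by -2.45 points and passed (exact permutation, adjusted p = 0.015), and it also passed without Hezuo cold 1 (adjusted p = 0.0242). The share of miR-21-5p passed without Bama cold 3 (adjusted p = 0.029). The 10 most abundant entries together kept a like part, 90.2% ± 0.719 in cold and 90.4% ± 0.504 in normal livers (exact permutation p = 0.55, adjusted 0.638).

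**Figure D1:**
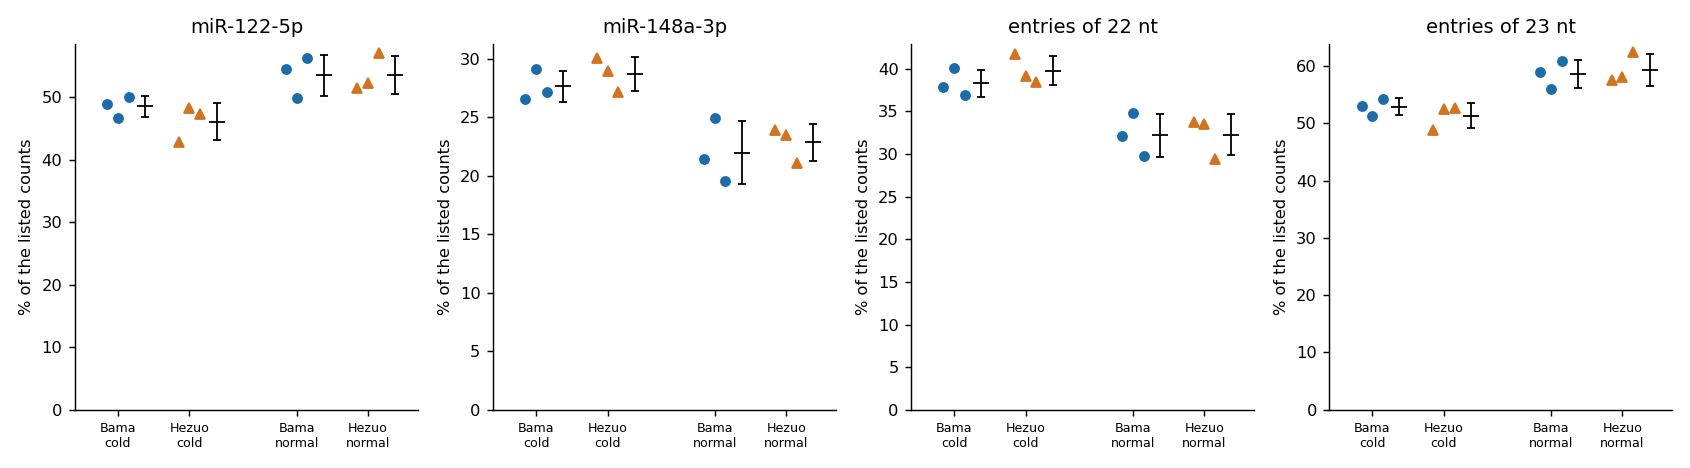
Share of the listed counts (%, y axis) of miR-122-5p, miR-148a-3p, all entries of 22 nt and all entries of 23 nt in each liver, cold groups left and normal groups right; points are livers, circles Bama and triangles Hezuo, and the line beside each group is the mean ± SD (n = 3). The cold livers lie at 26.6% to 30.1% for miR-148a-3p, above all normal livers, and at 42.8% to 50.0% for miR-122-5p.

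Counts were then tested entry by entry with edgeR, on a scale (TMM) that assumes that most entries do not change and that is less driven by the most abundant ones. On that scale miR-122-5p differed by -0.26 log2 units (SE 0.09, adjusted p = 0.196) and miR-148a-3p by 0.26 (SE 0.08, adjusted p = 0.118), and neither passed. With library totals in place of TMM, miR-148a-3p was at 0.35 and passed (adjusted p = 0.0115). Of the 460 entries 10 passed at an adjusted p below 0.05 (2.17%), 6 higher in cold livers (1.3%) and 4 lower (0.87%), with 82 at an unadjusted p below 0.05. MiR-29b, miR-7-5p, both strands of miR-140, miR-378 and miR-378-y rose. MiR-192-z, miR-181-y, let-7c and miR-455-3p fell. Bama and Hezuo agreed in sign for all 10, beside 302 of 460 (65.7%) over all entries, and choosing on the average of both favours such agreement. The size was larger in Bama for 9 of them, in part by small margins. Over all entries the median size was 0.25 log2 units in Bama and 0.22 in Hezuo. By the edgeR test of the difference between the breeds' responses 0 entries passed (smallest adjusted p = 0.766), so a stronger response in Bama was not shown. In 8 of the 10, each cold liver lay beyond each normal liver of its own breed in the direction of the change; over all entries tested 13 did so (2.83%). In 3 of the 10 (miR-29b, miR-7-5p and miR-140-5p), the 6 cold livers did not overlap the 6 normal livers at all, whatever the breed; over all entries 4 showed that (0.87%), the other being let-7g. The livers that gave these counts are those that called the 10, so neither count is separate evidence.

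**Figure D2:**
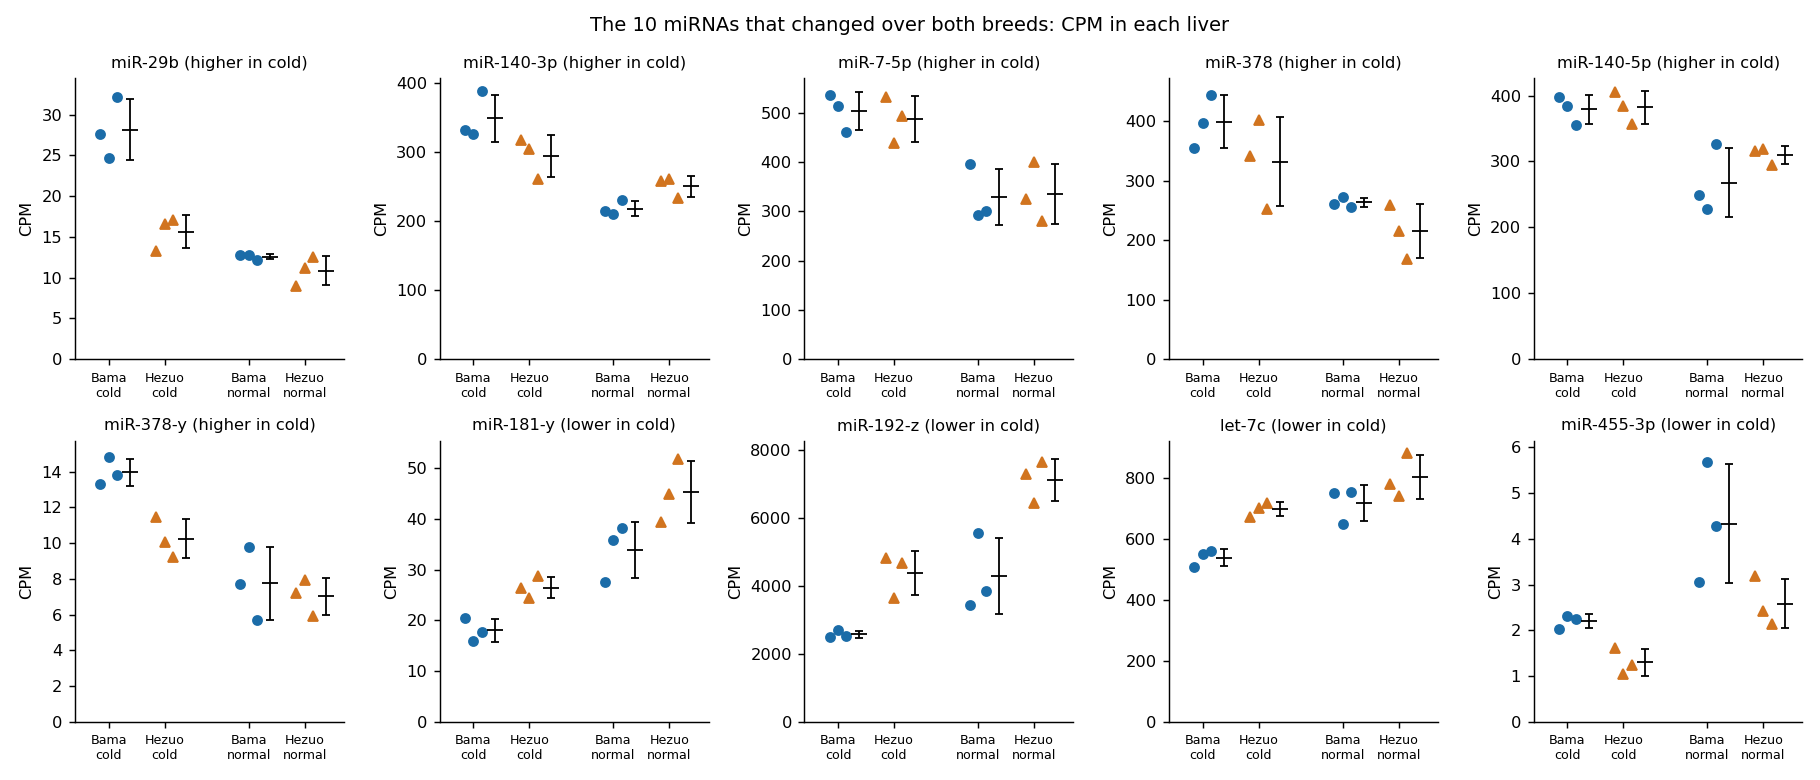
CPM (y axis, from 0) in each liver of the 10 entries that passed, 6 higher and 4 lower in cold livers, with the cold groups left and the normal groups right; circles are Bama, triangles Hezuo, and the line beside each group is the mean ± SD (n = 3). The groups do not overlap for miR-29b (13.3 to 32.1 CPM in cold, 8.93 to 12.8 CPM in normal livers), miR-7-5p and miR-140-5p.

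MiR-29b, which represses mRNAs of collagens and other matrix proteins, rose 1.80-fold. It stood at 27.6, 24.7 and 32.1 CPM (counts scaled for library size) in cold Bama livers and at 13.3, 16.5 and 17.1 CPM in cold Hezuo livers, against 12.8, 12.8 and 12.2 CPM in normal Bama livers and 8.93, 11.1 and 12.5 CPM in normal Hezuo livers. The cold Bama livers were the highest of all, and the lowest cold liver, a Hezuo liver, lay just above the highest normal liver. The change was 0.84 log2 units (SE 0.14, adjusted p = 0.0035), with 1.16 in Bama and 0.53 in Hezuo; the difference between the breeds was -0.63 (adjusted p = 0.766). MiR-29c has the same seed and stood at 2.05 ± 0.491 CPM in cold and 1.44 ± 0.444 CPM in normal livers (SD, n = 6 each), a change of 0.50 (SE 0.30, adjusted p = 0.419). The much more abundant miR-29a-3p stood at 597 ± 91.1 CPM in cold and 480 ± 51.8 CPM in normal livers, a change of 0.30 (SE 0.08, adjusted p = 0.073) that did not pass, with 0.53 in Bama and 0.07 in Hezuo. It did pass with DESeq2 (adjusted p = 0.0211) and with library totals (adjusted p = 0.0168). In the RefSeq annotation of the pig assembly Sscrofa11.1, MIR29B-1 neighbours MIR29A and MIR29B-2 neighbours MIR29C, and the mature miR-29b does not tell which gene it came from.

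MiR-7-5p, known from pancreatic islets and neurons and as a repressor of insulin and growth factor signalling proteins in human cells, rose 1.49-fold. It measured 537, 515 and 461 CPM in cold Bama livers and 532, 439 and 494 CPM in cold Hezuo livers, against 396, 293 and 301 CPM in normal Bama livers and 325, 401 and 281 CPM in normal Hezuo livers. Every cold liver was above every normal liver, and the cold levels of both breeds covered nearly the same range. The change was 0.58 log2 units (SE 0.11, adjusted p = 0.00857), 0.61 in Bama and 0.54 in Hezuo. Its opposite strand miR-7-3p stood near 1 CPM (1.09 ± 0.276 in cold and 0.926 ± 0.265 in normal livers, SD, n = 6 each), with a change of 0.24 (SE 0.33, adjusted p = 0.719). The annotation gives MIR7-1, inside no other annotated gene, and MIR7-2, inside HNRNPK, which encodes an RNA-binding protein. Other markers of nervous and endocrine cells, fixed as miR-9, miR-124, miR-129 and miR-375, were present at lower levels than miR-7-5p. Their highest value was 251 CPM, for miR-375 in 1 cold liver. Without miR-7-5p, the sum of the 13 other entries of this list, which include miR-7-3p and miR-7-x, was 154 to 448 CPM in cold livers (median 192) and 136 to 198 CPM in normal livers (median 157), and miR-124-y stayed at or below 1.20 CPM in all livers. MiR-129a-5p averaged 25.2 CPM in cold and 12.2 CPM in normal livers (0.99 log2 units, SE 0.36, adjusted p = 0.214), and it passed with DESeq2 (adjusted p = 0.0367). Its ranges overlapped, at 13.1 to 58.6 CPM in cold (median 20.2) and 6.48 to 20.4 CPM in normal livers (median 10.5). In that sum miR-9 is listed 3 times and miR-129 2 times with identical counts. With these copies and miR-7-5p included, 9 of the 10 tested entries of the list were positive, with a median of 0.46 log2 units. By edgeR 6 of the 10 had an unadjusted p below 0.05, beside 82 of 460 over all entries. The part of such cells in the rise of miR-7-5p was not tested.

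Both strands of miR-140 rose. This miRNA is best known from cartilage in mice, and its single annotated pig gene, MIR140, lies inside WWP2, a ubiquitin ligase gene. MiR-140-3p stood at 332, 327 and 389 CPM in cold Bama livers and at 318, 305 and 261 CPM in cold Hezuo livers, against 215, 210 and 231 CPM in normal Bama livers and 258, 261 and 233 CPM in normal Hezuo livers. The Bama groups were well apart, while 1 cold Hezuo liver (261 CPM) was level with the highest normal Hezuo liver. Its change was 0.45 log2 units (SE 0.08, adjusted p = 0.00857), 0.68 in Bama and 0.23 in Hezuo, and the difference between breeds was -0.44 (adjusted p = 0.766). MiR-140-5p stood at 398, 384 and 355 CPM in cold Bama livers and at 406, 384 and 356 CPM in cold Hezuo livers, against 249, 228 and 327 CPM in normal Bama livers and 316, 320 and 294 CPM in normal Hezuo livers. The cold livers of both breeds formed 1 narrow range above all normal livers. Its change of 0.40 (SE 0.09, adjusted p = 0.04) passed in 6 of 12 other settings. It was also lost when any 1 library other than Bama normal 3 was left out (adjusted p up to 0.127). The balance of the strands changed little: the log2 ratio of the 3p to the 5p entry was -0.25 ± 0.20 in cold and -0.29 ± 0.13 in normal livers (SD, n = 6 each; exact permutation p = 0.65, adjusted over 22 ratios 0.715). MiR-140-y, a form of the 3p strand that begins 1 base later and so has another seed, stood at 17.7 ± 1.88 CPM in cold and 14.6 ± 3.43 CPM in normal livers (0.30 log2 units, SE 0.14, adjusted p = 0.27).

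MiR-378 and its longer form miR-378-y rose. In mice miR-378 comes from the gene of the coactivator PGC-1β and acts on mitochondrial and lipid metabolism. MiR-378 stood at 355, 397 and 444 CPM in cold Bama livers and at 342, 401 and 253 CPM in cold Hezuo livers, against 262, 272 and 256 CPM in normal Bama livers and 260, 216 and 169 CPM in normal Hezuo livers. All but 1 cold liver were above every normal liver, and cold Hezuo 3 (253 CPM) fell below the highest normal Hezuo liver. The change was 0.61 log2 units, or 1.53-fold (SE 0.12, adjusted p = 0.0174), with 0.60 in Bama and 0.63 in Hezuo. Without Hezuo cold 2 it did not pass (adjusted p = 0.0647). MiR-378-y stood at 13.3, 14.8 and 13.8 CPM in cold Bama livers and at 11.4, 10.1 and 9.23 CPM in cold Hezuo livers, against 7.72, 9.80 and 5.70 CPM in normal Bama livers and 7.21, 7.93 and 5.90 CPM in normal Hezuo livers. Within each breed its cold livers were above the normal ones. Its change of 0.70 (SE 0.16, adjusted p = 0.04) was lost with no filter on low counts, and on leaving out any 1 library (adjusted p up to 0.0953) except Hezuo cold 3, Bama normal 2 or Hezuo normal 2. The ratio of miR-378 to miR-378-y gave a difference of -0.10 log2 units (exact permutation p = 0.55, adjusted 0.637).

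The related miR-378b-3p, with the same seed and another 3′ end, did not move with them. It stood at 11.7 ± 2.30 CPM in cold and 11.6 ± 1.77 CPM in normal livers (SD, n = 6 each), a difference of 0.00 log2 units (SE 0.15, adjusted p = 0.994). The log2 ratio of miR-378 to miR-378b-3p was 4.96 ± 0.25 in cold and 4.36 ± 0.19 in normal livers, a difference of 0.60 with every cold liver above every normal one (exact permutation p = 0.005, adjusted 0.022). For miR-378-y over miR-378b-3p the difference was 0.70 (exact permutation p = 0.005, adjusted 0.022). Both ratios contain the counts that called their first member, and both had an adjusted p of 0.055 without Bama cold 2. The annotation places MIR378-1 in PPARGC1B, the gene of PGC-1β, MIR378-2 in BCAS3 and MIR378B in RGS3. How the authors assigned reads that fit more than 1 of these entries is not stated.

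Among the entries that fell, miR-192-z is the 24-nt form of miR-192, a miRNA induced by p53 and abundant in liver, gut and kidney. It stood at 2506, 2695 and 2514 CPM in cold Bama livers and at 4815, 3629 and 4684 CPM in cold Hezuo livers, against 3446, 5554 and 3856 CPM in normal Bama livers and 7280, 6430 and 7630 CPM in normal Hezuo livers. Hezuo livers held more of it than Bama livers at each temperature, and within each breed the cold livers lay below the normal ones. The change was -0.72 log2 units (SE 0.11, adjusted p = 0.0035), a 1.65-fold lower level, with -0.74 in Bama and -0.70 in Hezuo. The shorter forms gave smaller values. MiR-192-x (23 nt) stood at 35777 ± 5608 CPM in cold and 45288 ± 8530 CPM in normal livers (SD, n = 6 each), a change of -0.34 (SE 0.10, adjusted p = 0.0999). MiR-192 (21 nt) stood at 21139 ± 2889 CPM in cold and 22263 ± 2502 CPM in normal livers, a change of -0.07 (SE 0.10, adjusted p = 0.694). Summed over the forms alike in their first 16 nt, the change was -0.30 and did not pass (adjusted p = 0.126).

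Ratios between these forms do not depend on the scaling between libraries, but they contain the counts that called miR-192-z and are no separate evidence of its change. The log2 ratio of miR-192-z to miR-192 was -2.98, -2.90 and -3.36 in cold Bama livers and -2.26, -2.47 and -1.92 in cold Hezuo livers, against -2.77, -2.21 and -2.44 in normal Bama livers and -1.45, -1.60 and -1.66 in normal Hezuo livers. In both breeds the cold livers had less of the 24-nt form per copy of the 21-nt form, by 0.63 log2 units on average (difference -0.63, exact permutation p = 0.005, adjusted 0.022). MiR-192-z over miR-192-x differed by -0.38 (exact permutation p = 0.005, adjusted 0.022). MiR-192-x over miR-192, a ratio added after the values were seen, differed by -0.25 (exact permutation p = 0.02, adjusted 0.055) and did not pass. For miR-192-z over miR-192 and over miR-192-x the adjusted p was 0.055 without Bama cold 2. MiR-215-z, the form with the shifted 5′ end, stood at 7943 ± 1204 CPM in cold and 9399 ± 1586 CPM in normal livers (-0.24 log2 units, SE 0.09, adjusted p = 0.214). In the annotation MIR192 neighbours MIR194A. MiR-194a-5p, from that neighbour, stood at 4083 CPM in cold and 4325 CPM in normal livers on average (-0.09 log2 units, SE 0.10, adjusted p = 0.658).

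MiR-181-y fell 1.79-fold. By its predicted pairing it is the opposite strand of miR-181a, a miRNA known in mice from lymphocyte development. It stood at 20.5, 15.9 and 17.6 CPM in cold Bama livers and at 26.3, 24.4 and 28.7 CPM in cold Hezuo livers, against 27.7, 35.8 and 38.2 CPM in normal Bama livers and 39.5, 44.9 and 51.8 CPM in normal Hezuo livers. Within each breed the cold livers lay below the normal ones, and Hezuo livers lay above Bama livers of the same temperature. The change was -0.84 log2 units (SE 0.13, adjusted p = 0.0035), with -0.91 in Bama and -0.78 in Hezuo. MiR-181a itself stood at 291 ± 31.2 CPM in cold and 358 ± 60.2 CPM in normal livers (SD, n = 6 each), a change of -0.29 (SE 0.08, adjusted p = 0.0847). The log2 ratio of miR-181-y to miR-181a was -3.73 ± 0.24 in cold and -3.18 ± 0.25 in normal livers, a difference of -0.55 (exact permutation p = 0.005, adjusted 0.022). In the annotation miR-181a has 2 genes, MIR181A-1 and MIR181A-2, and the counts do not tell them apart. The ratio may therefore span 2 hairpins, and it contains the counts that called miR-181-y. Its adjusted p was 0.0629 without Bama cold 2, and 0.055 with the forms of each strand summed. MiR-181b, encoded beside miR-181a at each of 2 loci, stood at 32.9 CPM in cold and 41.4 CPM in normal livers on average (-0.33 log2 units, SE 0.12, adjusted p = 0.214).

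Let-7c, of the family that restrains growth and the LIN28 proteins, fell 1.24-fold. It stood at 507, 550 and 561 CPM in cold Bama livers and at 673, 703 and 719 CPM in cold Hezuo livers, against 750, 651 and 756 CPM in normal Bama livers and 782, 744 and 885 CPM in normal Hezuo livers. The cold livers of each breed lay below the normal ones, by a small margin in Hezuo. Its change of -0.31 log2 units (SE 0.07, adjusted p = 0.04) passed in 3 of 12 other settings, and it was lost when any 1 library other than Bama normal 2 was left out (adjusted p up to 0.162). Of the 12 tested entries with the let-7 seed, 4 were positive and 8 negative, with a median of -0.10. Let-7a, of the same length and seed as let-7c, was at -0.13 (SE 0.07, adjusted p = 0.322), and the log2 ratio of let-7c to let-7a differed by -0.18 (exact permutation p = 0.015, adjusted 0.055). Let-7g lay on the other side: 3052 to 3428 CPM in cold livers (median 3237) against 2214 to 2988 CPM in normal livers (median 2909), with no overlap, yet its change of 0.22 (SE 0.08, adjusted p = 0.214) did not pass. MiR-99a-5p, whose gene neighbours that of let-7c, was at -0.20 (SE 0.08, adjusted p = 0.224).

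MiR-455-3p, known in mice from brown fat and cartilage, fell 1.97-fold at a low level. It stood at 2.02, 2.31 and 2.26 CPM in cold Bama livers and at 1.62, 1.03 and 1.25 CPM in cold Hezuo livers, against 3.06, 5.67 and 4.27 CPM in normal Bama livers and 3.18, 2.42 and 2.15 CPM in normal Hezuo livers. The cold livers lay below the normal livers of their breed, and the change was -0.98 log2 units in each breed and on average (SE 0.24, adjusted p = 0.0471). It passed in 3 of 12 other settings and was lost when any 1 library other than Bama normal 1 was left out (adjusted p up to 0.145). The opposite strand, miR-455-5p, is more abundant. It ranged over 102 to 169 CPM in cold Bama livers and 101 to 116 CPM in cold Hezuo livers, against 192 to 233 CPM in normal Bama livers and 117 to 132 CPM in normal Hezuo livers. Here too the groups of each breed did not overlap, but its change of -0.43 (SE 0.12, adjusted p = 0.073) did not pass except with DESeq2 (adjusted p = 0.0492) and without Bama cold 2 (adjusted p = 0.0307). The log2 ratio of the 3p to the 5p entry differed by -0.50 (exact permutation p = 0.035, adjusted 0.0856). The gene, MIR455, lies inside the collagen gene COL27A1.

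**Figure D3:**
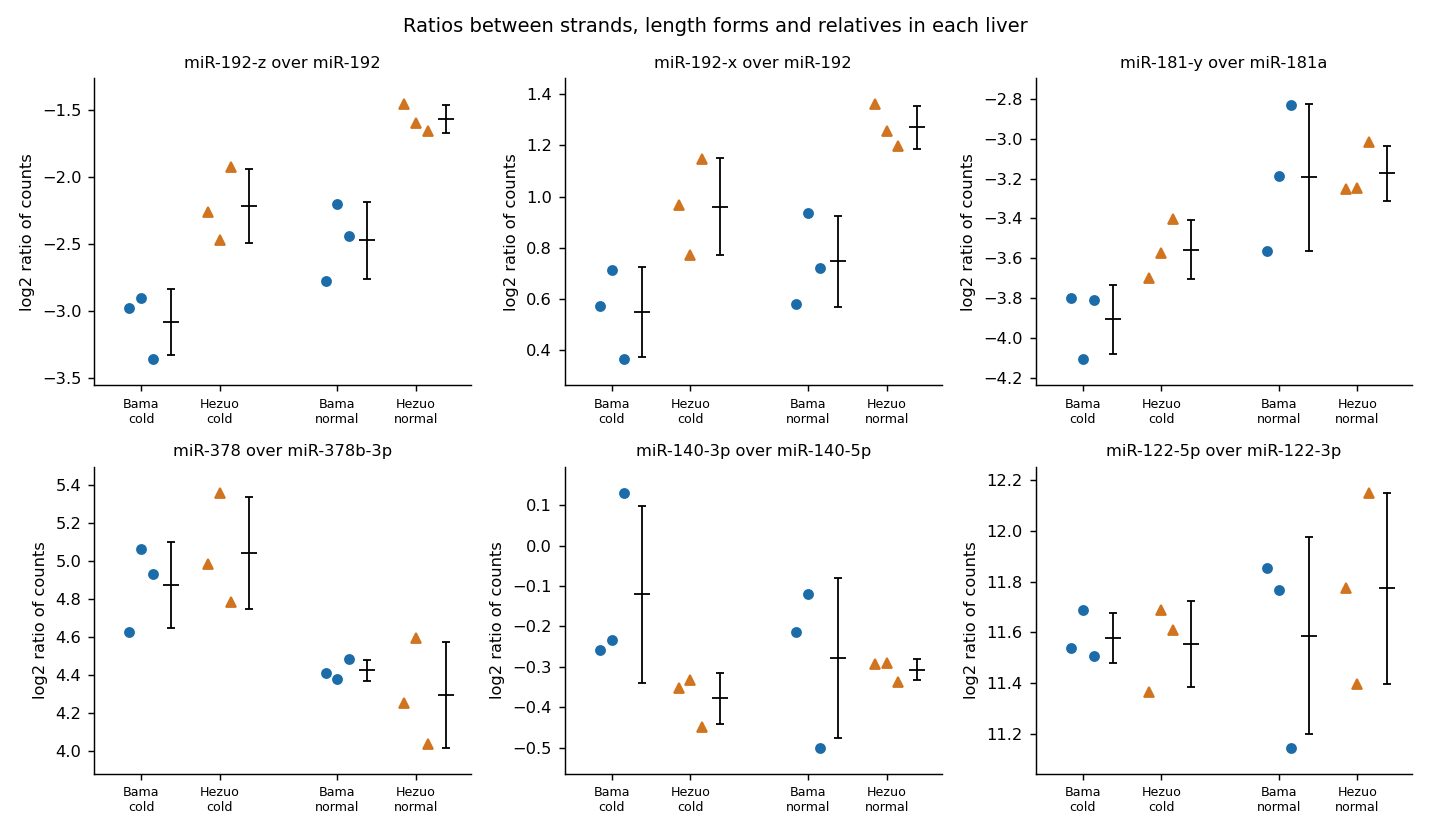
Log2 ratios of counts (y axis) between 2 entries of the same library, cold groups left and normal groups right; circles are Bama livers, triangles Hezuo livers, and the line beside each group is the mean ± SD (n = 3). MiR-192-z over miR-192 and miR-181-y over miR-181a lie lower in cold livers of each breed, miR-378 over miR-378b-3p lies higher, and the ratios of the 2 strands of miR-140 and of miR-122 overlap between temperatures.

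Of the 22 ratios computed, 6 of them added after the values were seen, 5 passed: those of miR-192-z to both shorter forms, miR-181-y to miR-181a, and both miR-378 forms to miR-378b-3p. The strands of miR-122 gave no difference that passed. Their log2 ratio, 5p over 3p, was 11.57 ± 0.12 in cold and 11.68 ± 0.36 in normal livers (SD, n = 6 each; difference -0.11, exact permutation p = 0.49, adjusted 0.599). The short form miR-122-x over miR-122-5p differed by 0.10 (exact permutation p = 0.21, adjusted 0.272).

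Several further entries came close without passing. Of those named here, miR-204, miR-184, miR-92-y, miR-126-y, miR-148-y and miR-95 passed with DESeq2, at adjusted p-values of 0.00545 to 0.0411. Lower in cold livers were miR-204, whose gene lies in TRPM3, at -0.70 (SE 0.17, adjusted p = 0.0543), and miR-184 at -1.14 (SE 0.29, adjusted p = 0.0543). MiR-204 differed far more between breeds than between temperatures: 34.5 to 56.7 CPM in cold Bama livers and 233 to 428 CPM in cold Hezuo livers, against 70.8 to 107 CPM in normal Bama livers and 348 to 488 CPM in normal Hezuo livers. MiR-184 was instead higher in Bama, at 10.9 to 21.4 CPM in cold Bama livers and 1.5 to 2.59 CPM in cold Hezuo livers, against 28.5 to 45.8 CPM in normal Bama livers and 2.03 to 7.09 CPM in normal Hezuo livers. MiR-92-y, a 24-nt form of the growth-promoting miR-92, ranged over 34.6 to 58.3 CPM in cold and 43.2 to 69.0 CPM in normal livers (-0.47 log2 units, SE 0.13, adjusted p = 0.0847).

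On the higher side the closest was miR-126-y, a form of the endothelial miR-126 from EGFL7. It stood at 33.2 ± 4.11 CPM in cold and 23.1 ± 4.68 CPM in normal livers (SD, n = 6 each; 0.53 log2 units, SE 0.14, adjusted p = 0.0543). It passed with library totals in place of TMM (adjusted p = 0.0449) and without Bama normal 3 (adjusted p = 0.0322). The 4 endothelial entries, forms of both strands of miR-126, summed to 12532 to 15516 CPM in cold and 11263 to 12893 CPM in normal livers, and the part of endothelial cells was not tested. Forms of the miR-148 family lay higher as well. MiR-148-y, 21 nt, stood at 296 ± 54.0 CPM in cold and 224 ± 31.7 CPM in normal livers (0.40 log2 units, SE 0.12, adjusted p = 0.0847), and miR-148-z, 24 nt, at 17.1 ± 3.62 CPM in cold and 12.2 ± 2.56 CPM in normal livers (0.47, SE 0.16, adjusted p = 0.167). MiR-95 stood at 87.8 ± 24.5 CPM in cold and 58.7 ± 13.5 CPM in normal livers (0.58, SE 0.19, adjusted p = 0.154).

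Across entries, the responses of the 2 breeds leaned the same way. Of the 460 tested, 302 (65.7%) had the same sign in both breeds, with Pearson's r of 0.31 and Spearman's rho of 0.39; of the 236 with a mean of at least 10 CPM, 162 (68.6%) did, with r of 0.47 and rho of 0.51. These describe entries of the same 12 libraries, which share each library's scaling and are not independent, so no p is given. The median size of a difference was 0.25 log2 units in Bama and 0.22 in Hezuo. By the test of the difference between the breeds' responses, edgeR called 0 entries, with 25 at an unadjusted p below 0.05, and the smallest adjusted p was 0.766. Within 1 breed edgeR called 5 entries in Bama and 0 in Hezuo, with 67 and 43 at an unadjusted p below 0.05, which does not show that the breeds differ.

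**Figure D4:**
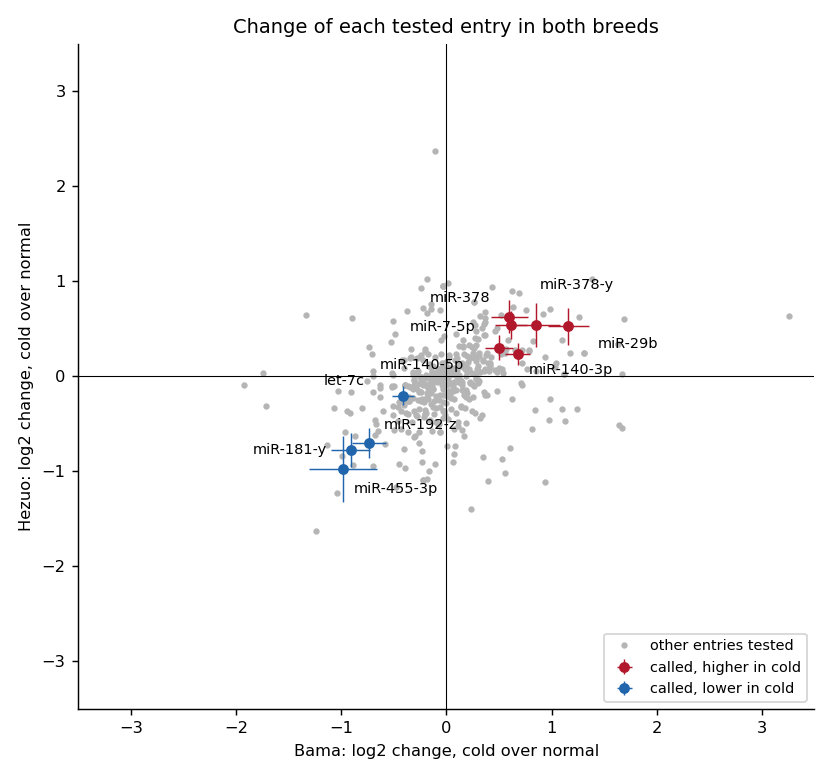
Log2 change, cold over normal, in Bama (x axis) and Hezuo (y axis) for the 460 tested entries; red and blue points are the 6 higher and 4 lower entries that passed on the average of both breeds, with SE bars, and gray points are the rest. The 10 lie in the 2 quadrants where both breeds have the same sign, which choosing them on the average favours, and miR-29b (1.16 in Bama, 0.53 in Hezuo) and miR-140-3p (0.68 and 0.23) lie toward the Bama axis.

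Lists of miRNAs with known roles were described by counts. Over all 460 tested entries, 208 values were positive and 252 negative with a median of -0.03, 6 entries rose (1.3%), 4 fell (0.87%), and 82 had an unadjusted p below 0.05. With so few calls in all, counts of 1 to 4 in a list are given as descriptions and were not tested. The lists were chosen with earlier results of these data known, and forms of 1 miRNA count as separate entries. Among 37 tested entries tied to glucose and insulin, 4 rose (miR-29b, miR-7-5p, miR-378 and miR-378-y), beside 6 of 460 (1.3%) over all entries, and 0 fell; 24 were positive and the median was 0.13. Among 29 of brown fat and thermogenesis, the 2 miR-378 forms rose and miR-455-3p fell, which makes 3 of 29 called beside 10 of 460 (2.17%), with 19 positive and a median of 0.03. Lipid and cholesterol metabolism had 39 tested entries, 25 of them positive and a median of 0.06, and edgeR called 0, with 7 at an unadjusted p below 0.05; limma-voom called 0 and DESeq2 called 1, miR-148-y. In the liver-enriched list of 20, miR-192-z fell and 12 entries were negative (median -0.09). Fibrosis and matrix held 1 entry that rose (miR-29b) and 1 that fell (miR-192-z) among 34, beside 10 of 460 (2.17%), with a median of -0.08. The p53 and oxidative stress list of 25 held miR-192-z again, with a median of -0.03.

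By edgeR 0 entries passed in the lists for hypoxia (22 tested, median -0.04), inflammation (15, median -0.09) and for miR-142 and miR-143, described as temperature-sensitive in cultured cells (8, median 0.14). At an unadjusted p below 0.05 these lists held 1, 3 and 0 entries, beside 82 of 460. DESeq2 called miR-21-x of the inflammation list (adjusted p = 0.0202), as did edgeR with the replicate block (0.71 log2 units, adjusted p = 0.025). The imprinted DLK1-DIO3 locus, a large cluster of miRNAs active in fetal tissues, had 13 of its 34 listed entries tested. All 13 were negative with a median of -0.61, and 0 passed by edgeR or DESeq2, also 0 at an unadjusted p below 0.05. Most stood at a few CPM, and the most abundant, miR-381-3p, averaged 264 CPM in cold and 410 CPM in normal livers (-0.57 log2 units, SE 0.47, adjusted p = 0.575). These are entries of 1 locus in the same livers and so are not independent of each other. The filter on low counts worked by group, so a low entry could enter through the normal livers where it stood higher. Examples are miR-495-y (on average 1.01 CPM in cold and 1.44 CPM in normal livers) and miR-411 (1.06 and 1.60 CPM). The shared sign of the 13 may in part be set by that filter and was not tested. The 27 predicted miRNAs that were tested had 19 positive values and a median of 0.19; edgeR and DESeq2 called 0 of them, with 3 and 4 at an unadjusted p below 0.05. Predicted entries together held 0.0233% ± 0.00620 of the listed counts in cold and 0.0187% ± 0.00159 in normal livers (SD, n = 6 each). By exact permutation p was 0.035, adjusted 0.0923. Most of this difference lay in Hezuo, at 0.0238% to 0.0327% in cold and 0.0190% to 0.0210% in normal livers. In Bama the ranges overlapped, at 0.0172% to 0.0209% in cold and 0.0169% to 0.0181% in normal livers. Whether the breeds differ in this share's response was not tested.

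The libraries carried the liver's own markers at high levels, miR-122-5p and miR-148a-3p above all, at the shares given first. Markers of other cells were also present. Erythroid entries (miR-451, miR-144 and miR-486) summed to 538 to 2449 CPM in cold and 440 to 1892 CPM in normal livers. Myeloid entries (miR-223 and miR-142) summed to 466 to 832 CPM in cold and 443 to 799 CPM in normal livers, and lymphoid entries (miR-150 and miR-155) to 34.1 to 51.9 CPM in cold and 31.7 to 62.4 CPM in normal livers. Entries of stellate cells, fibroblasts and smooth muscle (miR-143, miR-145, miR-199 and miR-214) summed to 18316 to 28647 CPM in cold and 18396 to 30176 CPM in normal livers. Biliary and other epithelial entries reached 157 to 366 CPM in cold and 170 to 253 CPM in normal livers, and striated muscle entries 121 to 144 CPM in cold and 110 to 138 CPM in normal livers. For all of these the ranges overlapped. The sum of the nervous and endocrine list, 603 to 910 CPM in cold and 429 to 594 CPM in normal livers, did not overlap, and miR-7-5p makes up most of it. Of all entries in these marker lists, miR-7-5p and, in the liver list, miR-192-z passed the test.

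**Figure D5:**
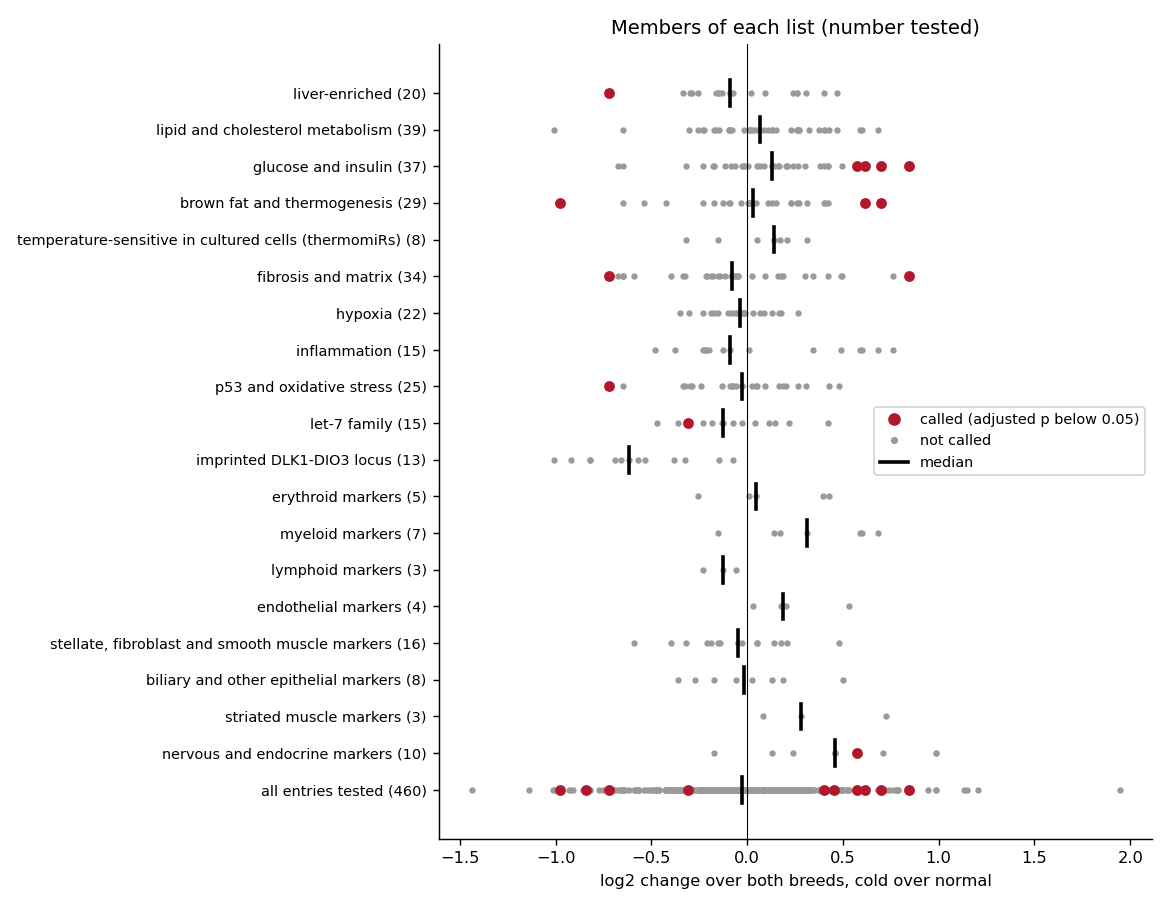
Log2 change over both breeds, cold over normal (x axis), of each tested entry in 19 lists and in all 460 tested entries (rows, with the number tested); red points passed the test, gray points did not, and the black line is the median. The glucose and insulin list holds 4 red points to the right of 0. Of the 34 listed entries of the DLK1-DIO3 locus, the 13 left by the filter on low counts lie to the left with none passing.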

How the data were processed

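Small RNA libraries of 18 to 30 nt were made from TRIzol-extracted liver RNA, per the labels' protocols. The authors deposited 1 table with, per the file headers, raw counts and TPM for each library, a total count, and the name, class, sequence and length of each entry. The deposited TPM are the counts scaled by 1 constant per library; the totals implied by these constants exceed the listed counts, which are 84.3% to 88.2% of them. The aligner, miRNA database, build and prediction tool: not given in the sources used here. Among the lines, 2 were empty and not analysed here, and 47 entries have the same counts in every library as another entry, so reads shared by near-identical entries are uncertain.

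The counts were tested with edgeR 4.0.16 (R 4.3.3): TMM scaling (factors 0.816 to 1.10), filterByExpr by group, 4 group coefficients, robust quasi-likelihood F tests of the mean of both within-breed differences (8 residual degrees of freedom, biological coefficient of variation 25.0%), and Benjamini-Hochberg adjustment over 460 entries. The procedure was tested on simulated data with changes larger than any that passed here, so the simulation does not cover changes of this size. CPM were computed on the TMM-scaled library sizes. Shares and log2 ratios (0.5 added to each count) were compared by exact permutation within breed, two-sided, adjusted over 29 shares and 22 ratios. Opposite strands were found with RNAduplex 2.7.2 (energy of at most -20 kcal/mol). Gene neighbours lie within 10000 bp in RefSeq's annotation of Sscrofa11.1, matched by miRNA name. Alternatives used other scalings, filters, DESeq2 1.42.0, limma-voom (limma 3.58.1), an additive model, a replicate block, summed or collapsed entries, and each library left out.

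Named are all entries that passed and the 6 nearest per direction that reach 10 CPM as a group mean. At most 2 of these 6 could be predicted entries. Others come from the 10 most abundant entries and from those that share a seed or hairpin with one that passed. Up to 4 per list by smallest p were also eligible, and not every entry of these last sets is printed. MiR-99a-5p, miR-181b, miR-194a-5p, miR-7-3p and miR-140-y (gene neighbours, strands or forms) and miR-381-3p (abundance), with the low markers, were added after their values were seen. Members, lists and the rule were chosen with earlier results of these data known.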

Additional observations from a re-analysis of the deposited data

How the results depend on the processing

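The count of 10 entries became 6 with no filter on low counts, 24 with DESeq2, 6 with the replicate block (breed and pig number together) and 5 with entries that share their first 16 nt summed. It was 5 to 12 when 1 library was left out, with 5 without Hezuo cold 2 and 6 on leaving out Hezuo normal 1, Bama cold 3 or Bama cold 1. The other settings gave 7 to 13: 7 (5 higher, 2 lower) with DESeq2 size factors, 13 (11 higher, 2 lower) with library totals and 8 (6 higher, 2 lower) with upper quartile scaling, against 6 higher and 4 lower with TMM. MiR-181-y, miR-29b and miR-7-5p passed in all 12 other settings and in all 12 sets with 1 library left out. The replicate block ended the calls of miR-140-3p (adjusted p = 0.0538), miR-140-5p (0.0668), miR-378-y (0.0628), let-7c (0.0933) and miR-455-3p (0.0628). Same-numbered cold and normal pigs of a breed correlated at 0.00785 to 0.168 in their deviations from the group means. Of the 6 pairs 1 was over 0.1, and 2 of 6 cold libraries were closest to their own number. With only 6 pairs, these values do not settle whether a number names the same animal.

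With the replicate block the shares of miR-122-5p (-6.23 points) and miR-148a-3p (5.76 points) had an adjusted p of 0.129, and the 5 ratios that had passed one of 0.0859; 6 pairs can give no raw p below 0.0313. Leaving out 1 library moved them over -7.13 to -5.36 points for miR-122-5p and 5.16 to 6.49 points for miR-148a-3p. With miR-122-5p out of the total, the share of the 10 most abundant entries differed by 2.10 points and that of 21-nt entries by -1.22 points, the opposite signs (each adjusted p = 0.0245), since that total is without its largest member. Low entries rest on few counts: miR-455-3p, the lowest that passed, had a mean of 21.2 counts per library.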
